A study of Homo sapiens with 4 samples.

Results

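Heat shock proteins and chaperones were followed through 10 genes, chosen by name among 62663 annotated genes, of which 20033 are protein-coding: HSPA1A, HSPA1B, HSPA8, HSPA5, DNAJB1, HSPH1, HSP90AA1, HSP90AB1, HSPB1 and HSPD1. For each gene, every H3.3 peak interval that overlapped the gene body or lay within 5 kb of any of its annotated transcription start sites (TSS) was taken from both deposited lists. H3.3 chromatin immunoprecipitation followed by sequencing (ChIP-seq) had been done in wild-type (MRC5_WT) cells of MRC5, a human fetal lung fibroblast line, which the study's methods call MRC5_VA, an SV40-immortalized derivative. The no UV library came from unirradiated cells, and the UV library from cells given 10 J/m2 UV-C, the short-wavelength band that damages DNA directly, with 3 h of recovery. Each condition was 1 library, made from the DNA of 3 replicates pooled before sequencing. No spread between replicates could therefore be computed and no difference between the conditions was tested. An interval found in 1 list only also cannot tell a change in the number of cells carrying H3.3 there from a change in the amount per cell.

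H3.3 is the histone H3 variant that is put into chromatin outside DNA replication, in large part at transcribed genes and regulatory regions, where old nucleosomes are lost. Heat shock genes are textbook examples of genes whose RNA polymerase II pauses just after the TSS and is released on stress, when the heat shock factor HSF1 binds heat shock elements in their promoters. Their products fold, hold or refold proteins in the cytosol, the endoplasmic reticulum (ER) and mitochondria.

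The promoters differed in the elements they carried, and they are shown for the genes the results turn on. A heat shock element is built of GAA units in alternating orientation, and a pair of units reads GAANNTTC or TTCNNGAA. A pair was present in the 250 bp before the TSS of 8 of the 10 genes, against 11.58% of 35116 RefSeq promoters of the same length. An element of 3 alternating units, which contains overlapping pairs, was present in 4 of 10, against 0.44%. The ER stress element, a CCAAT box and CCACG separated by 9 bases, was found in HSPA5 alone among the 10 genes, against 0.07%. TATAAA was found in HSPA1A and HSPA1B among the 10 genes, against 10.72%, and CCAAT was found in 6 of 10, against 32.01%. All motifs were searched on both strands, and a match describes the letters only. The median GC content of the 10 promoters was 62.2%, with a range from 56.4% to 78.4%, and that of all promoters was 58.0%. In the following RefSeq sequences (GRCh38.p14, hg38), read along the gene, capitals mark heat shock elements, or in HSPA5 the ER stress element. For HSPH1 only the element and its flanks are given, from hg38, because the RefSeq start lies at −484 from the GENCODE start.
HSPA1A promoter, chr6:31815293-31815542, plus strand: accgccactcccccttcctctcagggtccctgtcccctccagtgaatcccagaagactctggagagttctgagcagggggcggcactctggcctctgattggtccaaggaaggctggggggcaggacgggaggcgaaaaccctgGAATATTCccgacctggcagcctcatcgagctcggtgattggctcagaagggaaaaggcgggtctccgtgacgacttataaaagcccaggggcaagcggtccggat
HSPA1B promoter, chr6:31827488-31827737, plus strand: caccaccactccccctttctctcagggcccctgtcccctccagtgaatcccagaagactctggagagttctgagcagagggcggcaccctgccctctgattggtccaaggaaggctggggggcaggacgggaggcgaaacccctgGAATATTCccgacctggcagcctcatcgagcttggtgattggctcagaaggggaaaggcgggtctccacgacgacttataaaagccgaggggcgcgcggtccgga
HSPA8 promoter, chr11:123062137-123062386, minus strand: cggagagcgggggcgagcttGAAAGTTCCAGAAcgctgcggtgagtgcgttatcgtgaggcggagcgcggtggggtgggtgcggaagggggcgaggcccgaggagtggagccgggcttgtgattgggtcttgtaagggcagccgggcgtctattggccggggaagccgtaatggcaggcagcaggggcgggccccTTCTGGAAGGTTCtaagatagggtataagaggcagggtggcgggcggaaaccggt
HSPH1 element, chr13:31161943-31161972, minus strand: tgccgcagaTTCTGGAAAGTTCtgatcagt
HSP90AA1 promoter, chr14:102087045-102087294, minus strand: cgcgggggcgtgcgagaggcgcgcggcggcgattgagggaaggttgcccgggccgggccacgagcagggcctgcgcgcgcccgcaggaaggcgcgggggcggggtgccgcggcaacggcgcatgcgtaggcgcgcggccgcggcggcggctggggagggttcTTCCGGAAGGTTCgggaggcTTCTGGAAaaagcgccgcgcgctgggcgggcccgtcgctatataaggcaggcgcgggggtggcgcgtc
HSPD1 promoter, chr2:197499841-197500090, minus strand: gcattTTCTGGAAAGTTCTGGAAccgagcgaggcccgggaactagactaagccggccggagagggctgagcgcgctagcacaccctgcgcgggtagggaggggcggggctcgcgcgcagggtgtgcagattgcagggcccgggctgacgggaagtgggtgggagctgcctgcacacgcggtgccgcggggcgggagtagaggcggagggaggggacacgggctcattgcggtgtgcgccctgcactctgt
HSPA5 promoter, chr9:125241344-125241593, minus strand: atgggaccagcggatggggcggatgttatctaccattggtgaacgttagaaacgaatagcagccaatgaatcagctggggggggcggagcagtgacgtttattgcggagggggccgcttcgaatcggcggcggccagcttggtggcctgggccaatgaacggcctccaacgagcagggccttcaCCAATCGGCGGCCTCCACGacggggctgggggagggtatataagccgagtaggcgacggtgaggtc

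As a group, the 10 genes held as many H3.3 intervals after UV as before, 77 in each list. An interval was listed in the window of 9 genes without UV, where 66.6% of all protein-coding genes had one, and of the same 9 genes after UV, where 68.4% had one. The exception was HSPA1A. The intervals covered 50074 bp without UV and 46080 bp after UV, a ratio of 0.92, and over all protein-coding gene windows the ratio was 0.948. Per gene the median ratio was 0.926 over the 9 genes and 1.0 over 12629 protein-coding genes covered in both lists. Covered bases were at least 1.5 times higher after UV at 1 of 9 genes, HSPA1B, against 18.8% of the protein-coding genes. They were at least 1.5 times lower at 1 of 9, HSPA8, against 18.5%. The HSPA1B ratio of 1.537 stood just past that line, and it was under it with windows of 2 kb or 10 kb around the TSS. The UV list was the shorter one, with 89709 summits on chromosomes 1 to 22, X and Y against 102924, and the sequencing depth of the libraries is not given in the lists.

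**Figure D1:**
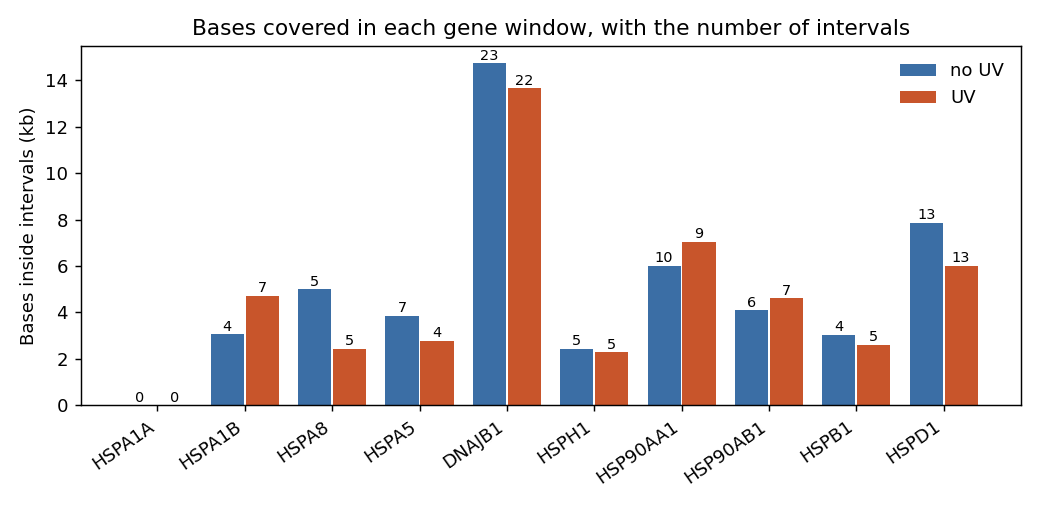
Bases inside H3.3 intervals in each gene window (y axis, kb, linear from 0) for the no UV and UV libraries, with the number of intervals above each bar and 1 library per bar. HSPA1B had 3061 and 4705 bp and HSPA8 4992 and 2429 bp without UV and after UV, HSPA1A had no interval in either list, and the tall DNAJB1 bars include a long region shared with TECR.

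At the start of the transcribed region the lists differed in more of the 10 genes than at the window as a whole. An interval lay over the first 500 bp after the canonical TSS of 4 genes without UV (DNAJB1, HSP90AA1, HSP90AB1 and HSPB1), where 28.8% of protein-coding genes had one. After UV it lay over that stretch in 8 genes, against 38.6%, the additional ones being HSPA1B, HSPA8, HSPH1 and HSPD1. These 4 of 10 stood beside 11.7% of protein-coding genes with such an interval after UV only. The reverse, an interval without UV only, was seen at 0 of 10 genes and at 1.86% of protein-coding genes. Among genes with no interval there without UV, 4 of 6 chaperone genes (66.7%) had one after UV, and 2341 of 14272 protein-coding genes (16.4%) did. The direction was thus that of the whole list, with a larger share at these 10 genes. When peaks under a −log10 q of 5 were left out of the lists, 3 genes had an interval there without UV and 7 after UV: the HSPH1 interval (4.5) dropped out, and HSP90AA1, whose no UV summit had 3.9, joined the UV-only genes, again 4. The 500-bp stretch was chosen after the intervals had been seen. A TSS of another gene lay within 1 kb of the UV-only start interval at HSPA1B, HSPA8 and HSPD1. At HSPA1B these were the long noncoding RNA genes ENSG00000285565 and ENSG00000289829, at HSPA8 ENSG00000288061, and at HSPD1 HSPE1 and HSPE1-MOB4. Reading these intervals as those of the chaperone gene alone is therefore uncertain.

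**Figure D2:**
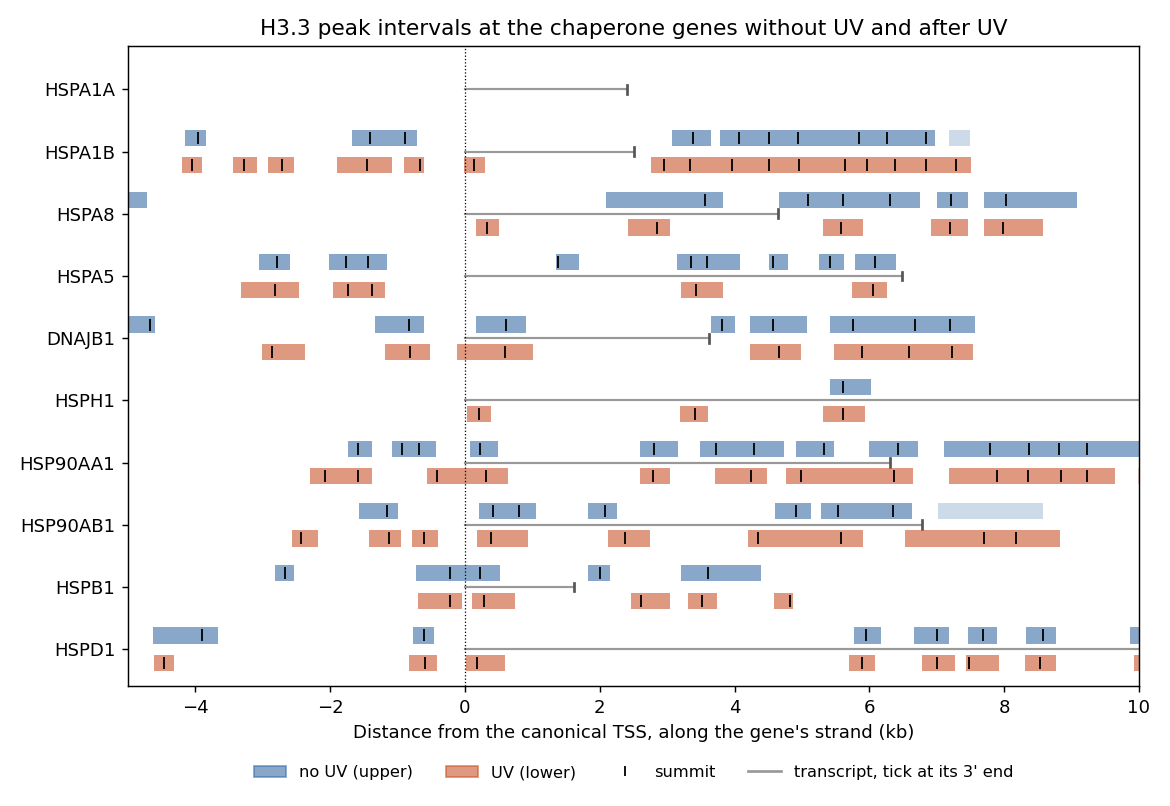
H3.3 intervals (boxes) and summits (black ticks) of the 10 genes by distance from the canonical TSS along the strand of the gene (x axis, kb), with the no UV list above and the UV list below the transcript line, whose tick is its 3′ end. Boxes just right of 0 appear only in the UV lane of HSPA1B, HSPA8, HSPH1 and HSPD1. HSPA1B, HSPA8, DNAJB1, HSP90AA1, HSP90AB1 and HSPB1 have boxes past the 3′ tick in both lanes, and at HSP90AB1 the no UV box there is a pale one. Pale boxes are intervals outside the gene window that overlap a drawn one, and intervals further than 10 kb downstream or 5 kb upstream are not drawn. Other intervals outside the gene window, such as those past the 3′ end of HSPA5, are not drawn either.

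Counting any annotated TSS and a distance of 1 kb gave a smaller difference. An interval lay that close to a TSS of 7 genes without UV and 8 after UV, where 48.0% and 54.0% of protein-coding genes had one. The gene listed after UV only was HSPH1, against 9.2% of protein-coding genes, and 0 genes were listed without UV only, against 3.2%. The TSS base itself was inside an interval at 1 gene without UV, HSPB1, and at 3 after UV, HSPA1B, DNAJB1 and HSP90AA1, beside 17.6% and 28.2% of protein-coding genes. The 250 bp before the TSS held interval bases at HSPB1 without UV (20.9% of protein-coding genes) and at HSPA1B, DNAJB1, HSP90AA1 and HSPB1 after UV (31.8%). The promoters of HSPA1A, HSPA8, HSPA5, HSPH1, HSP90AB1 and HSPD1 were outside the intervals of both lists.

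HSPA1A and HSPA1B encode the stress-inducible cytosolic HSP70, the chaperone whose induction defines the heat shock response. HSPA1A (chr6:31815543-31817946, plus strand of hg38) had no interval in either list anywhere in its window of 10001 bp. HSPA1B (chr6:31827738-31830254, plus strand) had 4 intervals without UV and 7 after UV. Its start was empty without UV and carried an interval of 322 bp after UV, chr6:31827722-31828043, from −16 to +305 in exon 1, with the summit at +130. The −log10 q of that summit, the peak caller's measure of how far the signal stood above background, was at percentile 53.9 of its own list, where 100 is the strongest. Upstream, intervals of 356 and 390 bp with summits at −3275 and −2707 were listed after UV only. Past the 3′ end, intervals of 570 and 3185 bp were listed without UV with 7 summits in all, and a further one of 326 bp with 1 summit just outside the gene window. After UV a single interval of 4755 bp with 10 summits overlapped all 3. That region overlaps the lncRNA gene SNHG32, the host gene of SNORD48.

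The values of these paralogs are uncertain, because reads from their shared sequence may not be assignable to either gene. Of 2251 stretches of 150 bases in the HSPA1A transcript, 1566 (69.6%) had an identical copy on another place of chromosomes 1 to 22, X and Y, and all 1566 copies lay at HSPA1B. For HSPA1B the share was 66.1%, and in the first 500 bp it was 41.0%. The promoters were identical at 235 of 251 aligned positions (93.6%), but no 150-base stretch of the 1 kb upstream of either gene had a copy on these chromosomes. On the reference's other sequences, which include alternate versions of this region, 98.8% of the stretches of both regions had a copy. How the aligner treated such reads, and whether alternate sequences were in its index, is not given in the sources used here. The other genes had copies of at most 0.9% of their transcript on these chromosomes.

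HSPA8 (HSC70, chr11:123057489-123063230, minus strand), the constitutive cytosolic HSP70, was covered less after UV but had an interval at its start only then. It had 5 intervals in each list, which covered 4992 bp without UV and 2429 bp after UV, a ratio of 0.487. The UV-only interval, chr11:123061637-123061969 (333 bp), ran from +167 to +499 in intron 1, with its summit at +335 and percentile 63.6. In the gene body, an interval over the small nucleolar RNA genes SNORD14C and SNORD14D spanned 1746 bp at percentile 55.1 without UV, with its summit at +3561 in intron 7. The UV interval that overlapped it spanned 623 bp at percentile 7.9, over SNORD14C alone, with its summit at +2850 in intron 5. Around the 3′ end, an interval of 2080 bp with 3 summits became 587 bp with 1 summit, at percentiles 90.5 and 92.3.

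HSPH1 (HSP110, chr13:31134973-31162388, minus strand), a nucleotide exchange factor for HSP70, had 5 intervals in each list, covering 2424 and 2268 bp. Its start was empty without UV and held a weak interval after UV, chr13:31161516-31161874 (359 bp), from 30 to 388 bp after the TSS in exon 1, with the summit at +208 and percentile 36.3. An interval in intron 2 kept its width, 616 and 615 bp, and its summit, at +5615 and +5609. A UV-only interval of 414 bp lay in the same intron at +3191 to +3604.

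DNAJB1 (HSP40, chr19:14514769-14560391, minus strand), the J-domain protein that delivers clients to HSP70, had an interval at its start in both lists. It spanned 746 bp without UV, from 158 to 903 bp after the TSS, and 1130 bp after UV, from −118 to +1011. Its summit stayed in intron 1, at +617 and +589, with percentiles 93.8 and 95.1. DNAJB1 had 23 intervals without UV and 22 after UV, the largest number of the 10 genes, but its annotated gene extends far upstream through TECR, an enzyme of fatty acid elongation, and 20 of the intervals in each list overlapped TECR. The start interval was among these 20, and a TECR TSS lay within 1 kb of it in both lists. Reading the intervals that overlap TECR as DNAJB1 intervals is therefore uncertain. Past the 3′ end lay intervals of 2148 bp with 3 summits without UV and 2064 bp with 3 summits after UV. They overlapped no other annotated protein-coding, lncRNA or small nucleolar RNA gene.

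The cytosolic HSP90 genes had intervals at the start in both lists. HSP90AA1 (chr14:102080742-102139699, minus strand), the stress-inducible HSP90α, had the largest difference in rank of the 4 genes with a start interval in both lists. Its interval in intron 1 covered 417 bp, from 74 to 490 bp, at percentile 36.5 without UV, and 1206 bp, from −568 to +637, at percentile 95.1 after UV. It shared 146 bp with a no UV interval of 666 bp upstream, whose summits at −680 and −926 lay outside it. Further upstream an interval of 361 bp at percentile 50.6 became 920 bp at percentile 88.2, with the summit at −1582 and −1579. Past the 3′ end an interval of 4572 bp with 7 summits, the widest of the group without UV, overlapped UV intervals of 2462 bp with 4 summits and 1580 bp with 2 summits, the last of them just outside the gene window.

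HSP90AB1 (chr6:44246166-44253888, plus strand), the constitutive HSP90β, kept its start interval: 852 bp without UV and 758 bp after UV, with summits at +418 and +392 and percentiles 91.2 and 92.0. Upstream, an interval of 384 bp, chr6:44246323-44246706, was listed after UV only, with the summit at −603 and percentile 87.5. Near the 3′ end, intervals of 525, 1354 and 1553 bp were listed without UV, the last of them outside the gene window, and intervals of 1705 and 2303 bp after UV. The interval of 2303 bp, which reached the neighbouring gene SLC35B2, overlapped both that of 1354 bp and that of 1553 bp. HSP90AB1 and HSP90AA1 were, besides HSPA1B, the genes whose covered bases were higher after UV, at ratios of 1.125 and 1.171. When peaks under a −log10 q of 3 or 5 were left out of both lists, the HSP90AB1 ratio was 0.876 or 0.957, so its direction depended on the threshold. In the other alternatives it stayed higher after UV.

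HSPB1 (HSP27, chr7:76302673-76304295, plus strand), a small heat shock protein that holds unfolded clients without ATP, was the only gene of the 10 whose promoter and start lay in 1 interval without UV. That interval of 1249 bp, from −729 to +519, was at percentile 96.5 with its strongest summit at +228. After UV the same place held intervals of 668 bp, ending 36 bp before the TSS, and 636 bp, starting 103 bp after it. Their percentiles were 75.2 and 52.7, and their summits lay at −215 and +284. HSPB1 was thus the gene of the group whose start interval ranked lower after UV.

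HSPD1 (HSP60, chr2:197486584-197516737, minus strand), the mitochondrial chaperonin, shares its promoter region with HSPE1, its co-chaperonin, which is transcribed the other way. It had 13 intervals in each list, covering 7855 and 5998 bp. A UV-only interval, chr2:197499238-197499828 (591 bp), ran from 12 to 602 bp after the TSS, with the summit at +173 in intron 1 and percentile 81.2, the highest of the 4 UV-only start intervals. On the HSPE1 side an interval of 313 bp at percentile 41.5 became 425 bp at percentile 78.9, with summits at −610 and −587. In introns 6 to 9, 6 intervals overlapped a counterpart in the other list, with widths of 409 to 518 bp without UV and 396 to 490 bp after UV.

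HSPA5 (BiP, chr9:125234853-125241382, minus strand), the HSP70 of the ER and a main target of the unfolded protein response, was, with HSPA1A, a gene with no interval within 1 kb of its TSS in either list. Its strongest interval in both lists lay over the divergent lncRNA HSPA5-DT, with summits at −1767 and −1736, widths of 856 and 779 bp and percentiles 98.4 and 92.3. The 5 intervals in the transcript without UV became 2 after UV. Of the 5, those with no counterpart after UV were at percentiles 57.6, 3.2 and 1.3. The window had 3856 bp covered without UV and 2781 bp after UV, a ratio of 0.721. When peaks under a −log10 q of 5 were left out of both lists, the ratio was 1.214, so its direction depended on the threshold.

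The sequences under the summits of UV-only start intervals are shown for HSPA8 and HSPD1, where they lie in introns. Each line holds 151 bases of hg38 read along the gene, with the summit base in capitals, and their GC contents were 68.2% and 73.5%.
HSPA8 intron 1, chr11:123061726-123061876, minus strand: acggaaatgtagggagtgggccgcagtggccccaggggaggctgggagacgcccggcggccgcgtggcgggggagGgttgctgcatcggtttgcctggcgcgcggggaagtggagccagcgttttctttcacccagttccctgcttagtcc
HSPD1 intron 1, chr2:197499592-197499742, minus strand: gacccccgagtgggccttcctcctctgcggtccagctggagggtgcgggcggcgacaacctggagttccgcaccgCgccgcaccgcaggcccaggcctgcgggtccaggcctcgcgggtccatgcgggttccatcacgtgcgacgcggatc

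At 3 of the 4 genes with a 3-unit heat shock element in the promoter, the UV interval at the start did not reach it. The elements printed above for HSPA8, HSPH1 and HSPD1 were in no interval of either list, at −55 to −43 and −230 to −218 from the TSS of HSPA8, −59 to −47 from that of HSPH1, and −245 to −228 from that of HSPD1. The element of HSP90AA1, at −88 to −76, was inside the UV interval and in no interval without UV. HSP90AB1 had no element in its promoter but a pair of 3-unit elements in intron 1, at +677 to +689 and +730 to +742, inside the start interval of both lists. In HSPB1 overlapping elements at +947 to +964 were in no interval. These are positions of letters and of intervals, and binding by HSF1 was not measured.

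Around the TSS as a whole, the 10 genes had a higher median cover than protein-coding genes. HSPA1A (0 bp) was an exception in both lists and HSPH1 (0 bp) without UV only. After UV HSPH1 had 773 bp, 7.7% of the 10 kb around its TSS. The median share of the 10 kb around the canonical TSS inside intervals was 26.2% without UV and 24.4% after UV, and over protein-coding genes it was 2.9% and 3.8%. Split by zone, the first 1 kb after the TSS of the 10 genes went from 2477 to 4621 bp, a ratio of 1.87, where all protein-coding genes together gave 1.44. In 7 genes that zone held more covered bases after UV and in 1, HSP90AB1, fewer. Of 20033 protein-coding genes, 6775 had more there after UV and 1640 fewer. The 5 kb upstream gave 1.18 against 1.15, and the rest of the transcript 0.79 against 0.852. In these 3 zones the 10 genes and all protein-coding genes differed between the lists in the same direction, while the 5 kb past the 3′ end gave 0.952 against 1.02.

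**Figure D3:**
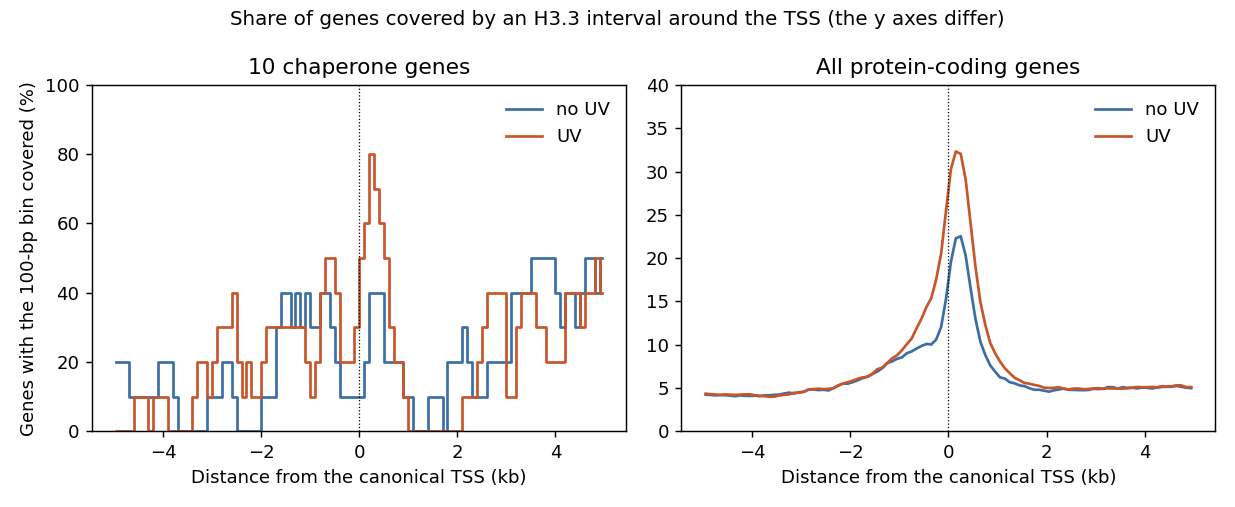
Share of genes whose 100-bp bin is covered by an H3.3 interval (y axis, %) by distance from the canonical TSS (x axis, kb), for the 10 chaperone genes (left, 0 to 100%) and all protein-coding genes (right, 0 to 40%). In the bin from 200 to 300 bp after the TSS, 4 chaperone genes were covered without UV and 8 after UV, beside 22.5% and 32.0% of protein-coding genes.

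Cover past the 3′ end was common in the group in both lists. At least 1 kb of the 5 kb past the 3′ end of the canonical transcript was covered at 9 of 10 genes without UV, where 12.4% of protein-coding genes had such cover, and at the same 9 after UV, where 13.0% had it. HSPA1A was again the exception. Over the 10 genes 53.51% of that zone was covered without UV and 50.94% after UV, against 6.68% and 6.81% over protein-coding genes. The amounts ran from 1369 bp at HSPH1 to 4610 bp at HSP90AA1 without UV, and from 1300 bp at HSPB1 to 4755 bp at HSPA1B after UV. Cover past the 3′ end was higher after UV at 4 genes and lower at 5, with the largest difference at HSPA8, 4079 and 2250 bp. Of 20033 protein-coding genes, it was higher at 3754 and lower at 3566. The zone was chosen after the intervals had been seen and reaches beyond the gene window for some genes. Neighbouring genes were looked up only for intervals in the gene windows, where intervals of this zone overlapped them at HSPA1B and HSP90AB1. The cover past the 3′ end of HSPA5 lay outside its gene window and was not looked up, so its assignment to HSPA5 is uncertain. At HSP90AA1 the TSS of the misc_RNA gene RN7SL472P lay within 1 kb of an interval past the 3′ end in both lists.

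**Figure D4:**
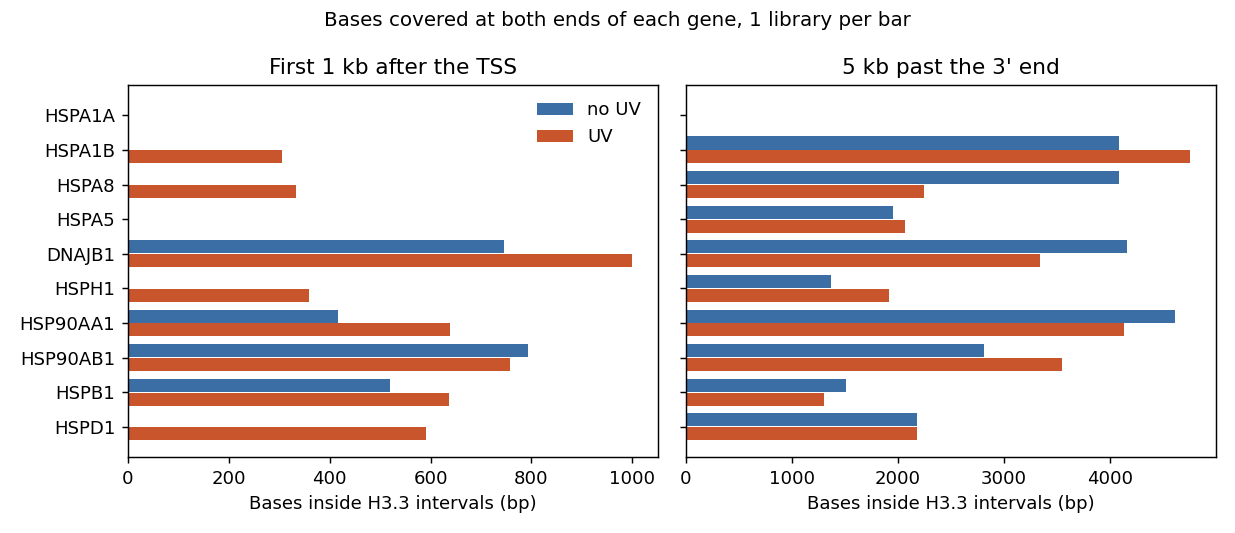
Bases inside H3.3 intervals (x axes, bp, linear from 0) in the first 1 kb after the TSS (left) and in the 5 kb past the 3′ end (right) of each gene, without UV and after UV, 1 library per bar. On the left HSPA1B, HSPA8, HSPH1 and HSPD1 have a UV bar only, from 306 to 591 bp, while on the right 9 genes have bars in both conditions.

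Summits of the lists lay closer to each other at these genes than over all protein-coding gene windows. The 110 summits without UV lay a median of 91.5 bp from the nearest UV summit, and the 101 UV summits a median of 89 bp from the nearest no UV summit, where summits in protein-coding gene windows gave 160 and 106 bp. A summit of the other list lay within 150 bp for 58.2% of no UV summits and 61.4% of UV summits, against 49.4% and 55.0%. Intervals with no overlap in the other list made up 17 of 77 (22.1%) without UV and 18 of 77 (23.4%) after UV, against 42.0% and 35.3%. The median width was 570 and 547 bp, against 432 and 450 bp. Per 10 kb of window the 10 genes held a median of 3.631 intervals without UV and 3.566 after UV, against 0.372 and 0.351. The part of this density and of the widths in the overlap and in the distances was not tested. The strongest summit of each gene was at a median percentile of 94.8 without UV and 92.3 after UV, against 85.9 and 86.5. Among genes with an interval over the first 500 bp, the median percentile there was 92.5 without UV and 72.4 after UV, against 83.9 and 85.8. The UV-only start intervals of HSPA1B (53.9), HSPA8 (63.6), HSPH1 (36.3) and HSPD1 (81.2) were all under the 85.8 of protein-coding genes.

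More of the other genes of the chaperone network also had an interval at the start after UV. Of 88 further genes on lists of HSP70 and HSP90 relatives, co-chaperones, J-domain proteins, small heat shock proteins, chaperonins, exchange factors, heat shock factors and ER stress genes, 31 had an interval over the first 500 bp without UV and 49 after UV. In 19 (21.6%) it was listed after UV only and in 1 (1.14%), HERPUD1, without UV only, beside 11.7% and 1.86% of protein-coding genes. Of all protein-coding genes, 28.8% had such an interval without UV and 38.6% after UV. Among the chaperonins, which fold proteins in a closed chamber, TCP1, CCT2, CCT6A and CCT7 had one after UV only, so that 2 of 9 had it without UV and 6 after UV. Among HSP90 co-chaperones CDC37, STIP1 and FKBP4 had one after UV only, and among the J-domain genes DNAJA3, DNAJB12, DNAJC2 and DNAJC5. The same held for the small heat shock protein gene HSPB9, the exchange factor genes BAG1 and GRPEL2, and the ER genes PDIA3, PDIA6, CALR, CANX and XBP1. HSP90B1, the HSP90 of the ER, had none in either list. No gene of the other HSP70 and HSP110 list (4 of 11 in each list) or of the heat shock factor list (3 of 5 in each list) had a start interval after UV only.

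At the wider distance of 1 kb from any TSS, 6 of the 88 genes (6.8%) had an interval after UV only and 4 (4.5%) without UV only, beside 9.2% and 3.2% of protein-coding genes. HSPA14, HSPB9, BAG1, HSF5, PDIA6 and XBP1 were the former, and HSPA2, TRAP1, DNAJB4 and BAG4 the latter. Covered bases were at least 1.5 times higher after UV at 11 (15.1%) and lower at 18 (24.7%) of the 73 genes covered in both lists, beside 18.8% and 18.5% of protein-coding genes, with a median ratio of 0.91. The highest ratios were those of PDIA4, a disulfide isomerase of the ER (2.784), and HSPA12A (2.502), and the lowest those of TRAP1, the mitochondrial HSP90 (0.313), and HERPUD1, an ER degradation factor (0.353).

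Some genes outside the network had profiles more like the group's common profile than any member did. Bins of 100 bp covered in at least 5 of the 10 genes, 17 in the lists together, were compared with every other protein-coding gene by the Jaccard index, the shared bins over all bins covered in either. WDR82 came first at 0.5, followed by H2AC25 (0.48), KRTAP4-12 and RPS19 (0.474 each) and RFWD3 (0.471). The members, from which the profile was built, ran from 0 for HSPA1A to 0.254 for DNAJB1, and the median over protein-coding genes was 0.0. The 5 named genes were the highest of all other protein-coding genes, so they do not place the members below most genes. The likeness is one of covered positions and counts no shared function.

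The fibroblast label was checked on marker genes, although an H3.3 interval does not measure expression. An interval lay within 1 kb of a TSS of 7 of 12 fibroblast marker genes in each list, beside 48.0% and 54.0% of protein-coding genes, and of 3 of 10 markers of epithelial, blood and endothelial cells without UV and 2 after UV. Anywhere in the gene window, 8 and 9 of 12 fibroblast markers and 7 and 6 of 10 other markers had one. These counts are too close to the shares over all genes to check the label. COL3A1, TBX4 and TBX5 had none in their windows in either list.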

How the data were processed

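H3.3 ChIP-seq peaks were analysed in 1 no UV and 1 UV library of the 4 samples. The input libraries were not analysed here. According to the labels and the methods, the authors used Trimmomatic (3.36) for trimming, BWA (0.7.12) for alignment to hg38, Biobambam2 against duplicates and MACS for peaks (version 1.4.2 in the submitters' processing notes). The deposited layout, with a −log10 q and a summit in each row, is that of later MACS versions, so the version behind these values is uncertain. The control and threshold for H3.3 are not given in the sources used here. Each deposited row gives interval coordinates, a summit, a score, a fold enrichment (a linear ratio) and a −log10 p and −log10 q, all made by the authors within that library. These depend on depth, so −log10 q was used as a percentile within its own list and, in alternatives, as a threshold. No row was under a −log10 q of 1.30.

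Rows of one interval were merged, and intervals were assigned to GENCODE release 44 genes with Python 3.11.15, pandas 2.3.3 and numpy 2.4.6. At least 1 bp of overlap counted. The same rules over all protein-coding genes gave the background. An HSPA1A and HSPA1B promoter alignment used Biopython 1.88. The scripts were tested on simulated lists. With 1 library per condition, no test was made, and changed meant a ratio of 1.5. The members and lists were chosen with earlier results of these data known, and the first 500 bp, the zones and the 3′ end were chosen after seeing the intervals. All 10 genes were named, and of the others those whose TSS interval was in 1 list only, those with the highest or lowest ratios of covered bases, neighbours at an interval and the 5 most alike in profile. The further genes with a first-500-bp interval in 1 list only, HSP90B1 and the 3 collagen and T-box markers were named after their values were seen. Alternative windows, thresholds and TSS definitions were tried.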

Additional observations from a re-analysis of the deposited data

How the results depend on the processing

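No paired analysis was possible because each condition was 1 library, and for the same reason no replicate could be left out. Of 210 recomputed values answering a comparison, 198 stayed within 1.5 times of the reported one and 12 did not. The count of genes covered at least 1.5 times more after UV went from 1 to 0 with TSS windows of 2 kb or 10 kb, when peaks under a −log10 q of 5 were left out, and with a ratio of 2 in place of 1.5. The count covered less went from 1 to 2 with windows of 2 kb and with −log10 q of at least 3. With −log10 q of at least 5, the no UV intervals went from 77 to 49, the median distance of no UV summits from 91.5 to 50 bp, the genes with a TSS interval after UV only from 1 to 0, other chaperone genes with one without UV only from 4 to 8, and those with a first-500-bp interval without UV only from 1 to 0. With the canonical TSS alone, 2 genes had a TSS interval after UV only. Of 90 recomputed ratios of covered bases for single genes, 88 stayed within 1.5 times and 2 did not. These were HSPA5, from 0.721 to 1.214 with −log10 q of at least 5, and HSPB1, from 0.857 to 0.571 with at least 3. Ratios within 1.5 times could still change direction. With −log10 q of at least 5, DNAJB1 went from 0.926 to 1.202, HSPH1 from 0.936 to 1.195 and HSPB1 from 0.857 to 1.044. The ratio of the 10 genes together went from 0.92 to 1.03. The causes were not tested beyond the smaller number of peaks that a stricter threshold leaves. The count of 4 genes with a first-500-bp interval after UV only was between 3 and 4 in all 6 alternatives, which were chosen after seeing the data. Unknown depth limits every statement on intervals found in 1 list only.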
